A study of Homo sapiens with 30 samples.

Results

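Unedited (WT) Jurkat E6-1 cells given PMA, a phorbol ester, together with ionomycin, a calcium ionophore, for 6 h were set against WT cells at 0 h, which the labels call unstimulated. The comparison was defined by the library titles alone, which place 3 WT libraries at 6 h and 3 at 0 h, 6 of the 30 libraries of the series. Jurkat is an established human T cell leukaemia line and E6-1 is a clone of it, so every library comes from the same malignant clone and not from normal T cells. The treatment protocol in the labels gives PMA at 200 ng/ml and ionomycin at 300 ng/ml but describes a cytokine assay of 48 h, and the time points carry no unit. Hours were taken as the unit for that reason. The other libraries are the same cells at 12, 24 and 36 h and Jurkat cells with an edited SLAMF6 gene (KO) at 0, 6, 12, 24 and 36 h under the same treatment, 3 libraries in each group. The design text calls them a knockout of SLAMF6 isoform 1, whereas the series title speaks of an overexpressed isoform 3. SLAMF6 is a lymphocyte receptor of the SLAM family.

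PMA takes the place of diacylglycerol and activates protein kinase C, which feeds the Ras and MAP kinase cascade and the NF-kB pathway. Ionomycin lets calcium into the cell, so that calcineurin removes phosphate from NFAT proteins and they enter the nucleus. The combination bypasses the T cell receptor, and NFAT, AP-1 and NF-kB then act together on cytokine genes, of which IL2 in Jurkat cells is the textbook case.

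The 3 libraries at 6 h held 21967070, 21012183 and 21847055 counts (replicates 4 to 6 by their titles), against 26489199, 7593309 and 28234040 counts at 0 h (replicates 1 to 3). The second library at 0 h is therefore the shallowest of the 6, and its low counts are the least certain. Counts of replicate libraries differed by 4.28 to 6.88 times more than counting noise gives (median chi-square over its expectation, in the pairs within both WT groups), so none looked like a library deposited again. The labels do not say whether replicates are separate cultures, so a p-value reflects the spread of these libraries, which may be technical. The T cell identity markers summed to 8840.1 to 9294.5 CPM at 6 h, against 6454.8 to 6535.6 CPM at 0 h. Of 19 tested, 8 rose and 6 fell, with a median log2 fold change of -0.118. CD4, CD7 and BCL11B were among those that fell, as given below. CD3D, of the receptor complex, was at 1449.6 ± 133 CPM at 6 h and 1124 ± 54.3 CPM at 0 h. Of 10 B cell and 10 epithelial or stromal markers, the defining genes MS4A1, EPCAM and DCN stayed under 1 CPM in all 6 libraries. The 15 monocyte markers summed to 126 to 134 CPM at 6 h, against 146 to 174 CPM at 0 h. The B cell list summed to 31.7 to 33.8 CPM at 6 h, against 47.6 to 51.4 CPM at 0 h. The epithelial or stromal list summed to 2.55 to 5.75 CPM at 6 h, against 2.91 to 3.81 CPM at 0 h. In these lists 1 of the 11 monocyte genes tested rose, and 3 of the 8 B cell genes tested fell (1 without the third library at 0 h or the second at 6 h). Their part in the results was not tested. AIF1 made up most of that sum (112 ± 3.27 CPM at 6 h, against 145 ± 16 CPM at 0 h), while CD14 stayed under 1 CPM in all 6 libraries. S100A8 had no count at 6 h and 1 count at 0 h. The 8 erythroid markers summed to 0.24 to 0.874 CPM at 6 h, against 0.183 to 0.738 CPM at 0 h, too low to test.

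Levels below are counts scaled to library size with TMM factors (CPM), as mean ± SD of 3 libraries unless each library is given. Libraries are given in the order of replicates 4, 5 and 6 at 6 h and 1, 2 and 3 at 0 h. CPM is not divided by gene length, so levels are compared between groups and not between genes. Genes given with their mean, SD and log2 fold change alone passed the same test as those with a standard error (SE) and p, unless said otherwise. A gene is said to have risen or fallen when the edgeR quasi-likelihood test gave a Benjamini-Hochberg adjusted p under 0.05 over all 21554 symbols tested. Bulk RNA cannot tell fewer cells making a transcript from less transcript per cell.

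At 6 h, 4818 of the 21554 symbols tested had changed, which is 22.4% of them. Of these, 2553 had risen (11.8%) and 2265 had fallen (10.5%). Counts of list members given below are to be read beside these shares. Which side was larger depended on the processing. With DESeq2 size factors for scaling 2416 rose and 2497 fell, and with DESeq2 2493 and 2629. A fit of these 6 libraries alone gave 2905 and 3076, and a fit without the filter on low counts 2231 and 1953. Without the first library at 0 h the split was 1919 and 1927, and without the third 2181 and 1797. Large changes were more often rises, with 1127 symbols raised 2-fold or more (5.23%) against 580 lowered 2-fold or more (2.69%). The filter on low counts looked at all groups, so symbols with few counts at 0 h could be tested through treated cells. For those a fall could not be found, so these shares do not weigh large rises against large falls. The 3 libraries at 6 h did not overlap the 3 at 0 h for 4717 called symbols (21.9%), and for 8475 symbols whether called or not (39.3%). Without the shallow library at 0 h 4075 symbols were called.

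**Figure D1:**
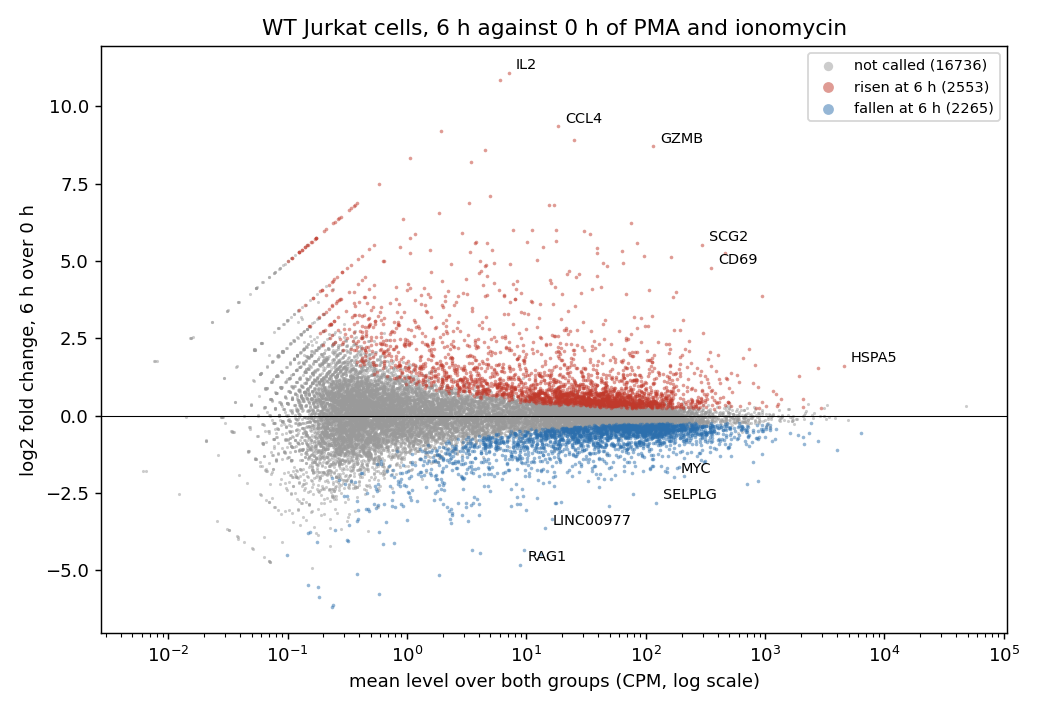
Log2 fold change at 6 h over 0 h (vertical axis) against the mean level over both groups in CPM (horizontal axis, log scale) for the 21554 symbols tested, one point per symbol. Of these, 2553 had risen (red) and 2265 had fallen (blue) at an adjusted p under 0.05, and 10 genes described in the text are named.

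Among the largest rises were those of secreted mediators with few or no counts in resting Jurkat cells. IL2, the T cell growth factor, was at 13.7, 15.1 and 14 CPM at 6 h, against 0, 0 and 0 CPM at 0 h, so that the 3 libraries at 0 h held no count at all. IL8, a neutrophil chemokine now named CXCL8, was likewise without a count at 0 h, so that its levels were 12.5, 12.1 and 11.5 CPM at 6 h, against 0, 0 and 0 CPM at 0 h. The macrophage chemokine CCL4 was at 36.9, 42.1 and 31.3 CPM at 6 h, against 0.117, 0 and 0 CPM at 0 h, with 3 counts in all at 0 h. BCL2A1, an antiapoptotic BCL2 relative that NF-kB is known to induce, was at 56.3, 49.5 and 45.1 CPM at 6 h, against 0.155, 0 and 0.0733 CPM at 0 h, with 6 counts at 0 h. No fold is given for these genes because so few counts stand under the line. In all 4 genes every 6 h library lay above every 0 h library, which was a condition for being named among the largest rises.

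GZMB, the serine protease granzyme B of cytotoxic granules, was at 239, 241 and 209.9 CPM at 6 h, against 0.117, 0.671 and 0.917 CPM at 0 h. Its log2 fold change was 8.70 (adjusted p = 1.38e-15), and 8.03 without the first and 9.82 without the third library at 0 h. IL4I1, a secreted amino acid oxidase of immune cells, was at 34.1 ± 1.31 CPM at 6 h and 0.326 ± 0.19 CPM at 0 h. XIRP1, an actin-binding protein best known from muscle, was at 33.2, 26.1 and 32.3 CPM at 6 h, against 0.466, 0.268 and 0.0733 CPM at 0 h. MUC2, a gel-forming mucin of the intestine, was at 21.1, 20.6 and 24 CPM at 6 h, against 0.389, 0.402 and 0.257 CPM at 0 h (log2 fold change 6.01, SE 0.333, adjusted p = 8.16e-16). PTGS1, the constitutive cyclooxygenase, was at 34.8, 36.8 and 32.7 CPM at 6 h, against 0.699, 0 and 0.55 CPM at 0 h, the second library at 0 h having no count. The ectonucleotidase ENPP1 was at 146, 147 and 156 CPM at 6 h, against 2.45, 2.15 and 1.5 CPM at 0 h (log2 fold change 6.22, SE 0.199, adjusted p = 3.75e-22). SCG2, a granin of neuroendocrine secretory granules, was among the steadiest of these genes, with 574, 582 and 579 CPM at 6 h, against 13.4, 11.9 and 12.1 CPM at 0 h (log2 fold change 5.53, SE 0.149, adjusted p = 3.20e-24). ATP6V0A4, a subunit of the vacuolar proton pump known from kidney, was at 172, 165 and 163 CPM at 6 h, against 3.57, 2.41 and 3.85 CPM at 0 h (log2 fold change 5.59, SE 0.239, adjusted p = 9.24e-19). In none of these 8 genes did a 6 h library overlap a 0 h library. Genes named as the largest rises had to meet that condition, so for them it is not a result.

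**Figure D2:**
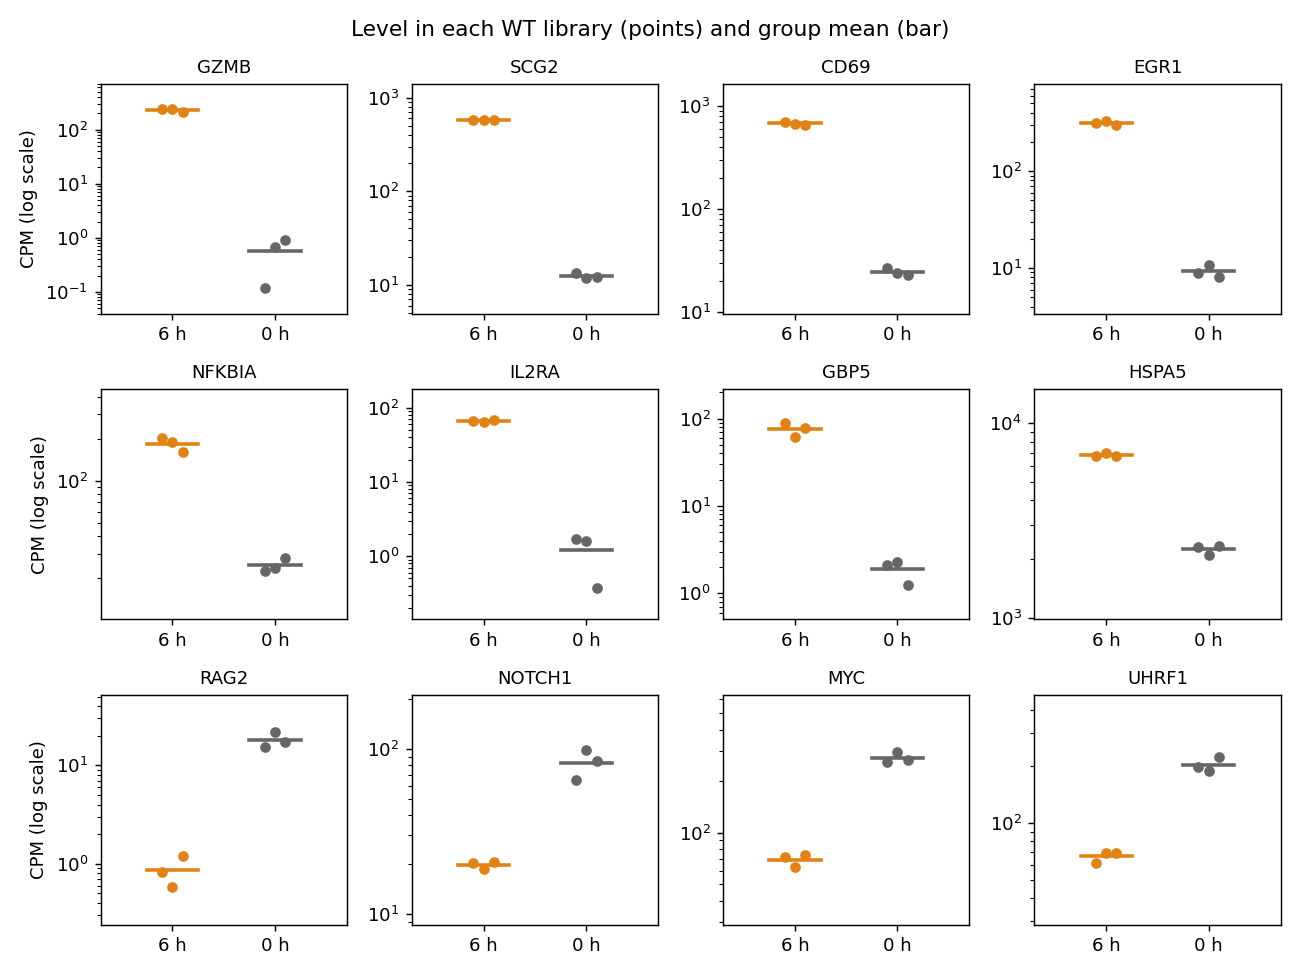
Level in each library (CPM, log scale, points) of 12 genes in WT cells at 6 h (left, orange) and 0 h (right, grey), with the group mean as a bar. The groups do not overlap in any panel, and SCG2 is at 574 to 582 CPM at 6 h and at 11.9 to 13.4 CPM at 0 h. For genes named by the size of their change, absence of overlap was a condition.

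Windows before the starts of IL2 and IL8 are shown because their transcripts had no count at 0 h. They are the 250 bases before the RefSeq start, on build GRCh38.p14, which is not the build of the counts. Capitals mark matches on either strand to AP-1 (TGANTCA), NFAT (GGAAAA) and NF-kB (GGG and CC with NNNNN between them), 3 motifs that do not overlap here.
IL2 (chr4:122456726-122456975, minus strand): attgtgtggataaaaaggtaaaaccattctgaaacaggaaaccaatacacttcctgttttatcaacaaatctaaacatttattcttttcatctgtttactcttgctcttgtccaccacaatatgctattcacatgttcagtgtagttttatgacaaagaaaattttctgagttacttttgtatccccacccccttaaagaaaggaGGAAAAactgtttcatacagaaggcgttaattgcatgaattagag
IL8 (chr4:73740319-73740568, plus strand): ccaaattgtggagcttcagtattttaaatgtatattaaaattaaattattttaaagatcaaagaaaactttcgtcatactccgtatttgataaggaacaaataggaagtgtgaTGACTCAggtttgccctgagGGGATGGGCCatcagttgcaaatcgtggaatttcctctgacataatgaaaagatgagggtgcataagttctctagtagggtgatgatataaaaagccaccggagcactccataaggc
The IL2 window holds 1 NFAT match, which starts 45 bases before the RefSeq start, and no AP-1 or NF-kB match by these letters. That absence holds for this window and this start only, because bases after the RefSeq start were not searched. Where transcription starts was not measured, so IL2 promoter sequence outside this window may hold such matches. The IL8 window holds 1 AP-1 match at 137 bases and 1 NF-kB match at 117 bases before the start. Sites that depart from the letters used are left in lower case. The capitals therefore do not show every site, nor a measured one. Among 35116 promoters of the same length, 21.2% held an NFAT match, 6.57% an AP-1 match and 54.4% an NF-kB match, so the NF-kB letters in particular are common.

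Immediate early and activation transcription factors rose as a group: of 31 tested, 21 rose and 1 fell, with a median log2 fold change of 1.53, against 0.032 over all symbols tested. The zinc finger factor EGR1 was at 312, 332 and 297 CPM at 6 h, against 8.86, 10.7 and 8.14 CPM at 0 h (log2 fold change 5.12, SE 0.184, adjusted p = 1.06e-20). Its relative EGR2 was at 60.3 ± 1.7 CPM at 6 h, against 0.826 ± 0.367 CPM at 0 h (log2 fold change 5.99). The orphan nuclear receptor NR4A1, which calcium signals are known to induce, was at 188 ± 8.24 CPM at 6 h, against 5.09 ± 0.707 CPM at 0 h (log2 fold change 5.16). Its relative NR4A3 was at 27.1 ± 1.03 CPM at 6 h, against 0.716 ± 0.443 CPM at 0 h (log2 fold change 5.45). FOS, a component of AP-1, was at 17.3 ± 2.69 CPM at 6 h, against 1.85 ± 0.727 CPM at 0 h (log2 fold change 3.33). IER3, an early response gene, was at 124 ± 10.3 CPM at 6 h, against 3.23 ± 0.462 CPM at 0 h (log2 fold change 5.32). SRF, the factor that drives many early genes, was not called (11.7 ± 1.48 CPM at 6 h, against 14.9 ± 1.03 CPM at 0 h, log2 fold change -0.35, adjusted p = 0.101). The one member that fell was MYC, which promotes growth and proliferation, with 71.8, 62.7 and 74.2 CPM at 6 h, against 258, 296 and 267 CPM at 0 h (log2 fold change -1.97, SE 0.352, adjusted p = 5.46e-05). All 3 of its 6 h libraries lay below all 3 of its 0 h libraries. The lower count of the list became 2 without the third library at 0 h, or without the first or the third at 6 h.

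Genes of calcium signalling moved in both directions. Of 28 tested, 9 rose and 7 fell, and the median was 0.12. NFATC1, the NFAT member under its own control, was at 127, 127 and 120.4 CPM at 6 h, against 25.2, 30.4 and 33.7 CPM at 0 h (log2 fold change 2.07, SE 0.28, adjusted p = 6.07e-07). PPP3CA, a catalytic subunit of calcineurin, was at 97 ± 2.67 CPM at 6 h, against 29.4 ± 3.57 CPM at 0 h (log2 fold change 1.73). The plasma membrane calcium pump ATP2B1 was at 77.8 ± 6.73 CPM at 6 h, against 22.2 ± 1.23 CPM at 0 h (log2 fold change 1.81). NFAT5, which responds to osmotic stress, rose with a log2 fold change of 1.31, and NFATC3 fell with -0.55. RCAN1, an inhibitor of calcineurin with an NFAT-driven isoform, was not called, at 4.79, 5.57 and 6.9 CPM at 6 h, against 6.45, 5.23 and 6.78 CPM at 0 h (log2 fold change -0.12, adjusted p = 0.792), and its groups overlapped. Counts per gene cannot show a change of isoform. The store sensor STIM1 was at 106 ± 3.04 CPM at 6 h, against 108 ± 16.2 CPM at 0 h (log2 fold change -0.041, adjusted p = 0.893).

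Regulators of the protein kinase C and MAP kinase route, feedback inhibitors among them, rose in 13 of 28 members tested, with 6 lower (3 lower without the third library at 0 h). SPRY4, which restrains Ras signalling, was at 51.6, 55 and 55.2 CPM at 6 h, against 2.99, 3.35 and 3.85 CPM at 0 h (log2 fold change 3.98, SE 0.205, adjusted p = 1.49e-16). SPRED2, with a similar role, was at 73.4 ± 1.5 CPM at 6 h, against 27 ± 0.928 CPM at 0 h (log2 fold change 1.44). Among phosphatases of MAP kinases, DUSP10 was at 38.4 ± 1.01 CPM at 6 h, against 5.96 ± 0.891 CPM at 0 h (log2 fold change 2.65). DUSP6 was at 15 ± 1.5 CPM at 6 h, against 4.22 ± 0.943 CPM at 0 h (log2 fold change 1.78). DUSP4 was at 9.76, 12.5 and 7.59 CPM at 6 h, against 0.117, 1.07 and 0.0733 CPM at 0 h. Of the kinases that bind phorbol esters, PRKCE rose to 84.8 ± 3.68 CPM at 6 h, against 17.3 ± 1.56 CPM at 0 h (log2 fold change 2.31). PRKCA fell to 68.8 ± 6.28 CPM at 6 h, against 113 ± 10.5 CPM at 0 h (log2 fold change -0.72). PRKCH was not called (adjusted p = 0.877). RASGRP2, a calcium-responsive exchange factor for small GTPases, fell to 6.77 ± 1.29 CPM at 6 h, against 27 ± 4.32 CPM at 0 h (log2 fold change -1.99).

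Targets and regulators of NF-kB rose in the main, with 20 of 25 higher and 0 lower (0 lower also at an unadjusted p under 0.05 and by DESeq2), and a median of 0.99. Both partners of the noncanonical dimer rose. RELB was at 59.2, 51.3 and 47.7 CPM at 6 h, against 1.9, 2.15 and 2.49 CPM at 0 h (log2 fold change 4.58, SE 0.208, adjusted p = 3.61e-18). NFKB2 was at 50.6, 50.6 and 48.5 CPM at 6 h, against 1.98, 3.08 and 2.05 CPM at 0 h (log2 fold change 4.49, SE 0.231, adjusted p = 1.43e-16). The inhibitor NFKBIA was at 203, 190.3 and 159 CPM at 6 h, against 22.7, 23.5 and 28 CPM at 0 h (log2 fold change 2.89, SE 0.155, adjusted p = 3.91e-16). The ubiquitin-editing inhibitor TNFAIP3 was at 385 ± 21.2 CPM at 6 h, against 72.1 ± 1.58 CPM at 0 h (log2 fold change 2.42). The signalling adaptor BIRC3, a known target of the pathway, was at 317 ± 4.49 CPM at 6 h, against 22.5 ± 2.87 CPM at 0 h (log2 fold change 3.83). TRAF1, another such adaptor, was at 125 ± 3.16 CPM at 6 h, against 3.94 ± 0.64 CPM at 0 h (log2 fold change 4.94). RELA, the main activating subunit, was not called, at 43.1, 43.2 and 45.1 CPM at 6 h, against 40.0, 46.1 and 49 CPM at 0 h, with overlapping groups (adjusted p = 0.877). The promoter of NFKBIA is shown because NF-kB is known to drive its own inhibitor through it, with the NF-kB match in capitals (GRCh38.p14, 250 bases before the RefSeq start).
NFKBIA (chr14:35404750-35404999, minus strand): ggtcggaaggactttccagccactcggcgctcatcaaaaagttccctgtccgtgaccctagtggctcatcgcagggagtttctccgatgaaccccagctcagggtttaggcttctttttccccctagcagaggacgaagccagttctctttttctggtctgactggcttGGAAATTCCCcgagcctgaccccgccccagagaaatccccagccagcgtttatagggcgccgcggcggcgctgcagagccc
The match starts 81 bases before the start. An NF-kB match was present in 20 of the 22 list members with a promoter in the RefSeq table (90.9%), where 54.4% of all promoters and 66.7% of those of uncalled symbols hold one. Promoters of risen symbols held one in 68.9% and those of fallen symbols in 70.7% of cases. The letters alone thus did not set risen from fallen symbols apart.

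Many cytokine and chemokine genes were too low to test: 9 of 28 cytokines and 5 of 21 chemokines were left out for low counts, so the counts here describe only the rest. Of 19 cytokines tested, 12 rose and 1 fell, and of 16 chemokines 10 rose. Members with few or no counts at 0 h, such as IL2, IL8, IFNG, CCL3, CCL4 and CCL20, passed the filter through groups of treated cells. For those a fall could not be found, so these counts do not weigh rises against falls. IFNG, the macrophage-activating interferon, was at 7.41, 4.9 and 8.1 CPM at 6 h, against 0.0389, 0 and 0 CPM at 0 h, with 1 count at 0 h. TNF was at 5.75, 4.37 and 6.48 CPM at 6 h, against 1.4, 1.07 and 0.367 CPM at 0 h, and its log2 fold change of 2.61 became 3.31 without the first library at 0 h. IL16, a CD4 ligand that is already transcribed at rest, was at 149.9, 148 and 158 CPM at 6 h, against 29.3, 25.4 and 32.9 CPM at 0 h (log2 fold change 2.37, SE 0.168, adjusted p = 4.36e-13). IL23A, the specific subunit of interleukin 23, rose to 13.1 ± 1.6 CPM at 6 h, against 4.69 ± 0.264 CPM at 0 h (log2 fold change 1.5). IL32, a proinflammatory cytokine of lymphocytes, fell to 61.3 ± 5.48 CPM at 6 h, against 113 ± 9.44 CPM at 0 h (log2 fold change -0.88). The T cell mediator OSM was not called (3.51 ± 1.34 CPM at 6 h, against 3.2 ± 0.566 CPM at 0 h, adjusted p = 0.906). Among chemokines, CCL20 was at 3.5, 4.47 and 3.61 CPM at 6 h, against 0, 0 and 0 CPM at 0 h, with no count at 0 h and a level at 6 h at least 77.8-fold above the floor of 3 counts over the 0 h group. CCL3 was at 6.49, 7.59 and 5.65 CPM at 6 h, against 0.0389, 0 and 0.0733 CPM at 0 h, with 3 counts at 0 h. CXCL3, a neutrophil chemokine, was at 3.99 ± 0.491 CPM at 6 h, against 0.923 ± 0.374 CPM at 0 h.

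Ligands of the tumour necrosis factor family rose in 9 of 12 members tested and fell in 0 (0 lower also at an unadjusted p under 0.05 and by DESeq2). CD70, the ligand of CD27, was at 31.8, 30.1 and 28.3 CPM at 6 h, against 1.36, 1.48 and 1.47 CPM at 0 h (log2 fold change 4.39, SE 0.404, adjusted p = 2.28e-10). CD27 itself was at 23.2, 19.4 and 23.6 CPM at 6 h, against 2.91, 5.23 and 3.92 CPM at 0 h (log2 fold change 2.53, SE 0.432, adjusted p = 2.86e-05). The death ligand TNFSF10 (TRAIL) was at 78, 74.4 and 79 CPM at 6 h, against 9.17, 10.3 and 10.2 CPM at 0 h (log2 fold change 2.97, SE 0.251, adjusted p = 3.47e-11). One of its receptors, TNFRSF10B, was at 73.8 ± 5.76 CPM at 6 h, against 31.3 ± 3.62 CPM at 0 h (log2 fold change 1.24). TNFSF8, the ligand of CD30, rose to 15 ± 1.89 CPM at 6 h, against 2.28 ± 0.232 CPM at 0 h (log2 fold change 2.67). TNFRSF8, which encodes CD30, fell to 20.0 ± 3.11 CPM at 6 h, against 34.2 ± 0.81 CPM at 0 h (log2 fold change -0.78). CD40LG, a classical calcium-dependent activation gene of helper T cells, was not called, at 20.2, 22.2 and 19.6 CPM at 6 h, against 24.5, 23.1 and 20.6 CPM at 0 h (log2 fold change -0.14, adjusted p = 0.783), and its groups overlapped. Of the 18 receptors of the family tested, 6 rose (33.3%) and 2 fell (11.1%, near the 10.5% of all symbols). The second number was 1 without the third library at 0 h or the third at 6 h. The costimulatory receptor TNFRSF4 (OX40) was at 12 ± 2.53 CPM at 6 h, against 2.84 ± 0.977 CPM at 0 h.

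Surface receptors of activated T cells rose in 15 of 24 members and fell in 2. CD69, the early activation lectin, was at 694, 674 and 658 CPM at 6 h, against 26.4, 24 and 22.8 CPM at 0 h (log2 fold change 4.79, SE 0.205, adjusted p = 9.24e-19). IL2RA, the high-affinity chain of the interleukin 2 receptor, was at 66.7, 64.2 and 69 CPM at 6 h, against 1.71, 1.61 and 0.367 CPM at 0 h, a log2 fold change of 5.89 that was 6.57 without the first and 5.30 without the third library at 0 h. The adhesion receptor CRTAM was at 12.1, 17.4 and 16.2 CPM at 6 h, against 0.272, 0.268 and 0.183 CPM at 0 h (log2 fold change 6.00, SE 0.526, adjusted p = 7.75e-11). CD82, a tetraspanin, was at 1028 ± 15.1 CPM at 6 h, against 283 ± 42 CPM at 0 h (log2 fold change 1.86). CD5, which dampens receptor signalling, was at 367 ± 17.2 CPM at 6 h, against 112 ± 12.5 CPM at 0 h (log2 fold change 1.71). TFRC, the transferrin receptor that usually marks dividing lymphocytes, fell to 296, 309 and 346 CPM at 6 h, against 667, 655 and 655 CPM at 0 h (log2 fold change -1.06, SE 0.137, adjusted p = 2.85e-07), with no overlap between the groups. CD38, an ectoenzyme, was the other member that fell, with 19.2 ± 2.25 CPM at 6 h, against 29 ± 1.02 CPM at 0 h, and was not called without the third library at 0 h or the second at 6 h (adjusted p 0.000806 to 0.126 over the alternatives tried).

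Inhibitory receptors rose in 8 of 16 and fell in 2 (1 without the second library at 0 h, or without the second or the third at 6 h). PDCD1, which encodes PD-1, was at 25.9, 22.1 and 23.5 CPM at 6 h, against 1.4, 2.41 and 2.31 CPM at 0 h (log2 fold change 3.60, SE 0.486, adjusted p = 5.98e-07). Its ligand CD274 was at 8.8 ± 1.74 CPM at 6 h, against 1.42 ± 0.645 CPM at 0 h (log2 fold change 2.49). HAVCR2 (TIM-3) was at 5.78 ± 0.729 CPM at 6 h, against 1.53 ± 0.101 CPM at 0 h (log2 fold change 1.90). LAIR1, a collagen receptor, fell to 55.9 ± 1.04 CPM at 6 h, against 128 ± 8.52 CPM at 0 h (log2 fold change -1.19). Of the 11 SLAM family genes tested, 7 rose and 2 fell. SLAMF6 itself was at 40.4, 39.9 and 36.1 CPM at 6 h, against 19, 25.1 and 19.4 CPM at 0 h (log2 fold change 0.90, SE 0.139, adjusted p = 6.18e-06). SLAMF7 was at 12.1 ± 1.57 CPM at 6 h, against 0.857 ± 0.171 CPM at 0 h (log2 fold change 3.85). CD48 was at 96.7 ± 7.13 CPM at 6 h, against 28.3 ± 3.95 CPM at 0 h (log2 fold change 1.77). SH2D1A, which encodes the SAP adaptor that these receptors signal through, fell to 99.3, 100.0 and 117 CPM at 6 h, against 252, 277 and 225 CPM at 0 h (log2 fold change -1.25, SE 0.177, adjusted p = 1.32e-06). The other member that fell was the receptor CD244, which was not called without the second library at 0 h or the second or the third at 6 h.

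Within the T cell receptor machinery 14 of 32 genes rose and 8 fell (13 in a fit of these 6 libraries alone), with a median of -0.073. TRAC, the constant region of the receptor alpha chain, was at 1204, 1181 and 1202 CPM at 6 h, against 279, 239 and 283 CPM at 0 h (log2 fold change 2.16, SE 0.112, adjusted p = 1.64e-16). The adaptor LCP2 (SLP-76) was at 155 ± 11.2 CPM at 6 h, against 59.1 ± 2.66 CPM at 0 h (log2 fold change 1.39). The adaptor SH2D2A was at 199.6 ± 7.51 CPM at 6 h, against 11.7 ± 1.05 CPM at 0 h (log2 fold change 4.07). CBLB, a ubiquitin ligase that restrains receptor signalling, was at 107 ± 0.753 CPM at 6 h, against 23.5 ± 4.27 CPM at 0 h (log2 fold change 2.17). PTPN6 (SHP-1), a phosphatase that also restrains it, was at 533 ± 22.2 CPM at 6 h, against 175 ± 13.2 CPM at 0 h (log2 fold change 1.60). LCK, the kinase that starts the cascade, was not called (log2 fold change -0.23, adjusted p = 0.0504), and its adjusted p ran over 0.00317 to 0.254 in the alternatives tried, the lowest with DESeq2. The coreceptor CD4 fell to 3.25 ± 0.888 CPM at 6 h, against 11 ± 1.13 CPM at 0 h (log2 fold change -1.75). CD7, an early T lineage receptor, fell to 11.4 ± 1.42 CPM at 6 h, against 23.5 ± 2.61 CPM at 0 h (log2 fold change -1.04). Receptors for cytokines rose in 11 of 27. IL21R was at 33 ± 1.79 CPM at 6 h, against 2.02 ± 0.599 CPM at 0 h (log2 fold change 4.14). IL4R was at 24.3 ± 2.51 CPM at 6 h, against 4.85 ± 0.45 CPM at 0 h (log2 fold change 2.30). TGFBR2, which receives transforming growth factor beta, was at 117 ± 6.73 CPM at 6 h, against 20.5 ± 1.04 CPM at 0 h (log2 fold change 2.52). The 1 member that fell, TGFBR1 (17 ± 0.954 CPM at 6 h, against 22.6 ± 2.57 CPM at 0 h), was not called in 5 of the 6 fits that left out 1 library (adjusted p 0.0159 to 0.143 over the alternatives tried).

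Genes of the interferon response rose more often than they fell. Of 40 tested, 22 rose and 1 fell, with a median of 0.77. The guanylate-binding protein GBP5 was at 88.3, 61.2 and 78.8 CPM at 6 h, against 2.1, 2.28 and 1.25 CPM at 0 h (log2 fold change 5.43, SE 0.239, adjusted p = 1.91e-18). Its relative GBP2 was at 75.8 ± 5.36 CPM at 6 h, against 2.06 ± 0.506 CPM at 0 h (log2 fold change 5.26). IRF9, a DNA-binding factor of the type I interferon response, was at 144 ± 11.4 CPM at 6 h, against 15.8 ± 1.34 CPM at 0 h (log2 fold change 3.18). IRF1 was at 323 ± 5.32 CPM at 6 h, against 83 ± 6.22 CPM at 0 h (log2 fold change 1.96). IRF2 was at 101 ± 6.61 CPM at 6 h, against 28.6 ± 3.52 CPM at 0 h (log2 fold change 1.80). ISG15, a ubiquitin-like modifier that type I interferon is known to induce, was not called, at 125, 141 and 114 CPM at 6 h, against 131, 187 and 148 CPM at 0 h (log2 fold change -0.29, adjusted p = 0.255). USP18, its protease, fell to 17.8 ± 2.27 CPM at 6 h, against 26.8 ± 1.55 CPM at 0 h (log2 fold change -0.59), a call lost without the third library at 6 h (adjusted p 0.00122 to 0.0665 over the alternatives tried). Interferon protein was not measured.

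Of the genes of MHC class I, peptide loading and MHC class II, 15 of 26 tested were higher and 0 lower (0 lower also at an unadjusted p under 0.05 and by DESeq2). HLA-E was at 389.6, 377 and 360.1 CPM at 6 h, against 82.4, 90.8 and 90.3 CPM at 0 h (log2 fold change 2.10, SE 0.100, adjusted p = 1.67e-17). HLA-B was at 234 ± 10.1 CPM at 6 h, against 87.6 ± 3.06 CPM at 0 h (log2 fold change 1.42). HLA genes share much of their sequence, and how reads that fit several of them were counted is not given in the sources used here. NLRC5, the transactivator of class I genes, was at 212 ± 5.12 CPM at 6 h, against 40.2 ± 5.79 CPM at 0 h (log2 fold change 2.39). The peptide pump TAP1 was at 347 ± 32.9 CPM at 6 h, against 77 ± 9.38 CPM at 0 h (log2 fold change 2.17). Of 22 STAT, JAK and SOCS genes, 13 rose. STAT3 was at 316 ± 2.16 CPM at 6 h, against 138 ± 13.5 CPM at 0 h (log2 fold change 1.19). The kinase JAK3, which serves the common gamma chain, was at 79.7 ± 4.26 CPM at 6 h, against 33.5 ± 0.765 CPM at 0 h (log2 fold change 1.25). The only member that fell was SOCS2, a feedback inhibitor of cytokine receptors, and it was not called in any of the 6 fits that left out 1 library.

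Factors of effector differentiation rose in 10 of 27 and fell in 2. BACH2, which restrains effector fate, was at 162, 159.8 and 173 CPM at 6 h, against 17.1, 18.8 and 19.8 CPM at 0 h (log2 fold change 3.16, SE 0.209, adjusted p = 7.13e-14). BCL6, the follicular helper factor, was at 40.3 ± 0.604 CPM at 6 h, against 5.73 ± 1.49 CPM at 0 h (log2 fold change 2.75). RUNX3, a factor of the cytotoxic lineage, was at 24.5 ± 0.773 CPM at 6 h, against 4.93 ± 0.614 CPM at 0 h (log2 fold change 2.28). STAT4, which relays interleukin 12, was at 50.1 ± 1.77 CPM at 6 h, against 11.3 ± 1.76 CPM at 0 h (log2 fold change 2.13). TBX21 (T-bet) was at 5.89, 4.13 and 3.66 CPM at 6 h, against 0.155, 0 and 0.183 CPM at 0 h. The 2 that fell were RORA and RUNX2, and the count was 1 without the first or the third library at 0 h or the first or second at 6 h. Of 17 genes of cytotoxic granules 8 rose and 4 fell. GZMA was at 181, 182 and 149 CPM at 6 h, against 56.1, 38 and 50.7 CPM at 0 h (log2 fold change 1.81, SE 0.169, adjusted p = 2.88e-10). SRGN, the proteoglycan that packs granule contents, was at 47.9 ± 2.21 CPM at 6 h, against 10.1 ± 1.8 CPM at 0 h (log2 fold change 2.21). The protease inhibitor CST7 was at 32.9 ± 3.63 CPM at 6 h, against 11.3 ± 1.54 CPM at 0 h (log2 fold change 1.52). UNC13D, which primes granules for release, fell to 62.9 ± 6.23 CPM at 6 h, against 92.3 ± 10.9 CPM at 0 h (log2 fold change -0.55).

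Genes that rearrange antigen receptors were among those that fell most. RAG1 and RAG2 encode the recombinase of developing lymphocytes. RAG1 was at 1.06, 0.528 and 0.185 CPM at 6 h, against 13.1, 22.9 and 15.3 CPM at 0 h, a log2 fold change of -4.83 (adjusted p = 3.30e-09) that was -5.55 without the first library at 6 h. RAG2 was at 0.828, 0.577 and 1.2 CPM at 6 h, against 15.2, 21.9 and 17.2 CPM at 0 h (log2 fold change -4.35, SE 0.38, adjusted p = 6.76e-11). Of 31 genes of recombination and immature T cells, 18 fell and 2 rose, against 10.5% and 11.8% of all symbols, and the median was -0.99. CD1E, an antigen-presenting molecule of cortical thymocytes, was at 258, 255 and 247 CPM at 6 h, against 1186, 1177 and 1144 CPM at 0 h (log2 fold change -2.21, SE 0.12, adjusted p = 5.86e-16). CD1B was at 50.0 ± 1.03 CPM at 6 h, against 166 ± 3.17 CPM at 0 h (log2 fold change -1.74). CD1D was at 31.9 ± 3.47 CPM at 6 h, against 99.4 ± 3.42 CPM at 0 h (log2 fold change -1.64). DNTT, the polymerase that adds untemplated bases at junctions, was at 76.7 ± 1.54 CPM at 6 h, against 179 ± 18 CPM at 0 h (log2 fold change -1.22). NOTCH1, the receptor that commits cells to the T lineage, was at 20.4, 18.7 and 20.6 CPM at 6 h, against 64.6, 98.5 and 84.2 CPM at 0 h (log2 fold change -2.04, SE 0.196, adjusted p = 6.02e-10). BCL11B, a factor that maintains that identity, was at 16.6, 15.5 and 19.2 CPM at 6 h, against 75.8, 81.3 and 57.7 CPM at 0 h (log2 fold change -2.06, SE 0.194, adjusted p = 3.63e-10). In both genes the groups did not overlap. The members that rose were ID2, an inhibitor of E proteins, at 18.3 ± 0.612 CPM at 6 h, against 4.66 ± 0.866 CPM at 0 h (log2 fold change 2.01), and MYB, a factor of progenitors (log2 fold change 0.58, adjusted p = 0.0345), which was not called without the first or second library of either group (adjusted p 4.20e-05 to 0.167 over the alternatives tried). ID3 was not called (log2 fold change 0.46, adjusted p = 0.0594).

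**Figure D3:**
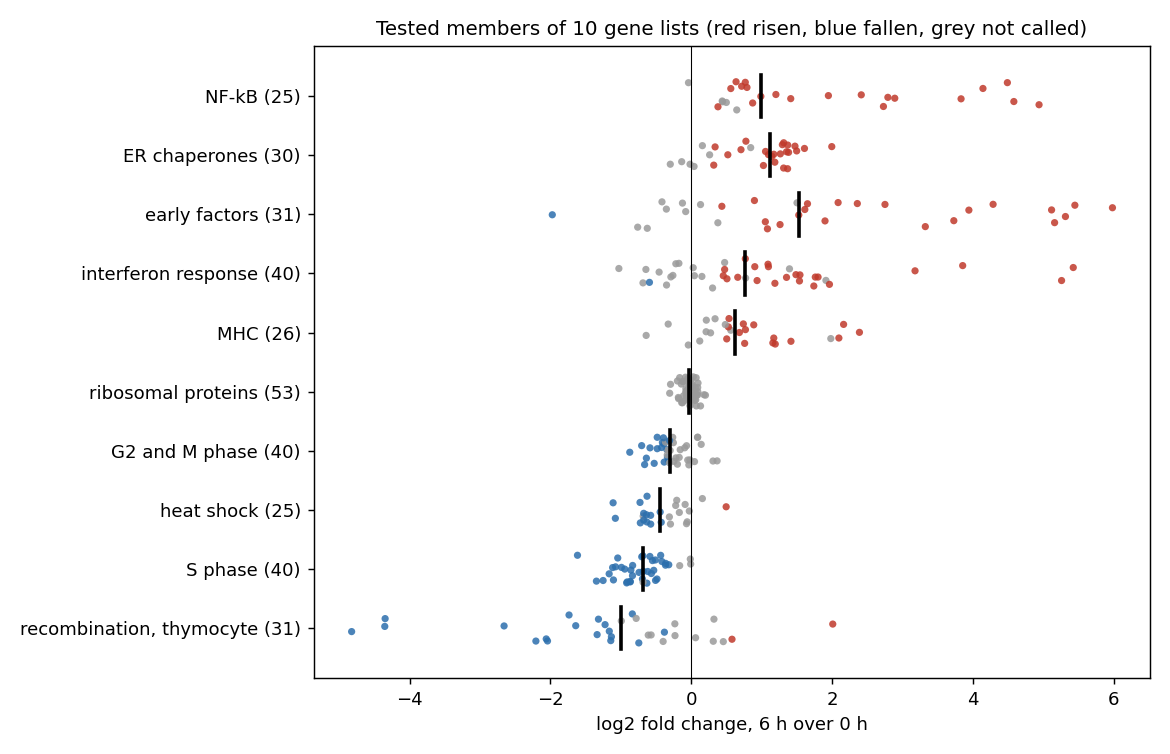
Log2 fold change at 6 h over 0 h (horizontal axis) of every tested member of 10 gene lists, one point per gene, coloured when it had risen (red) or fallen (blue) and grey when not called; the black bar is the list's median. S phase members all lie below 0 with a median of -0.69, thymocyte members reach -4.83 (RAG1), NF-kB members reach 4.94 (TRAF1), and ribosomal protein genes cluster at a median of -0.036 with none called.

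Other large falls are given next, of which DTX1 belongs to the recombination and immature T cell list and SELPLG to the adhesion and migration list. The adenosine deaminase ADA, abundant in immature T cells, was at 358, 361 and 266 CPM at 6 h, against 1067, 1419 and 1762 CPM at 0 h (log2 fold change -2.11, SE 0.197, adjusted p = 3.27e-10). SELPLG, the ligand of P-selectin, was at 30.9, 33.8 and 26.8 CPM at 6 h, against 228, 178 and 233 CPM at 0 h (log2 fold change -2.81, SE 0.293, adjusted p = 3.90e-09). The adaptor LIME1 was at 23.3 ± 1.69 CPM at 6 h, against 134 ± 30.6 CPM at 0 h (log2 fold change -2.52). DTX1, a Deltex regulator of Notch signalling, was at 3.42 ± 0.609 CPM at 6 h, against 21.4 ± 6.36 CPM at 0 h (log2 fold change -2.66). RHOU, an atypical small GTPase, was at 2.12 ± 0.22 CPM at 6 h, against 17.9 ± 2.56 CPM at 0 h (log2 fold change -3.06). PMEPA1, a membrane protein that dampens transforming growth factor beta signalling, was at 11.4 ± 2.4 CPM at 6 h, against 86.8 ± 3.6 CPM at 0 h (log2 fold change -2.92). The noncoding RNAs LINC00977 and LINC00426 fell as well. LINC00977 was at 2.14 ± 0.688 CPM at 6 h, against 26.8 ± 2.04 CPM at 0 h (log2 fold change -3.64). LINC00426 was at 4.34 ± 0.900 CPM at 6 h, against 30.6 ± 2.52 CPM at 0 h (log2 fold change -2.82). ADAMTS1, a secreted metalloproteinase, was at 4.88 ± 0.402 CPM at 6 h, against 33.9 ± 1.45 CPM at 0 h, and the acyl-CoA synthetase ACSL6 at 2.33 ± 0.773 CPM at 6 h, against 14.3 ± 3.3 CPM at 0 h. Among 37 adhesion and migration genes tested 10 rose and 10 fell. The intermediate filament VIM was at 658 ± 71.1 CPM at 6 h, against 286 ± 17.6 CPM at 0 h (log2 fold change 1.20). The phospholipid-binding ANXA1 was at 396 ± 26.7 CPM at 6 h, against 184 ± 12.9 CPM at 0 h (log2 fold change 1.10). The hyaluronan receptor CD44 was at 7.32, 9.61 and 9.96 CPM at 6 h, against 0.66, 0.134 and 0.22 CPM at 0 h.

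Genes of DNA replication fell together, most by less than 2-fold. Of 40 S phase genes, 36 fell and 0 rose (0 higher also at an unadjusted p under 0.05 and by DESeq2), with a median of -0.69. The summed level of the list was 5512.9 to 5620.7 CPM at 6 h, against 9142.3 to 9850.5 CPM at 0 h. UHRF1, which couples replication to DNA methylation, was at 61.6, 69.3 and 69.1 CPM at 6 h, against 198, 189 and 226 CPM at 0 h (log2 fold change -1.62, SE 0.13, adjusted p = 9.88e-12). The helicase subunit MCM2 was at 187 ± 6.94 CPM at 6 h, against 402 ± 80.4 CPM at 0 h (log2 fold change -1.10). Its partner MCM4 was at 214 ± 4.93 CPM at 6 h, against 481 ± 11.2 CPM at 0 h (log2 fold change -1.17). MCM5, of the same ring, was at 243 ± 9.37 CPM at 6 h, against 502 ± 21.5 CPM at 0 h (log2 fold change -1.04). GINS2, which belongs to the same helicase complex, was at 55.1 ± 2.48 CPM at 6 h, against 140.1 ± 12.9 CPM at 0 h (log2 fold change -1.35). RFC5, a clamp loader subunit, was not called (150.3 ± 8.98 CPM at 6 h, against 151 ± 7.32 CPM at 0 h). Of 21 regulators of G1, 12 fell and 1 rose. CCND3, a D-type cyclin of thymocytes, was at 168, 176 and 161 CPM at 6 h, against 365, 386 and 414 CPM at 0 h (log2 fold change -1.20, SE 0.118, adjusted p = 9.78e-10). SKP2, which marks the inhibitor p27 for destruction, was at 101 ± 3.6 CPM at 6 h, against 212 ± 15.8 CPM at 0 h (log2 fold change -1.07). CCND1, usually silent in T cells, was the member that rose (2.08 ± 0.39 CPM at 6 h, against 0.396 ± 0.363 CPM at 0 h).

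Genes of mitosis moved less. Of 40 G2 and M phase genes, 17 fell and 0 rose (1 higher at an unadjusted p under 0.05, 0 by DESeq2), with a median of -0.31. The count of 17 became 11 without the first and 10 without the second library at 6 h, and 26 in a fit of these 6 libraries alone. BIRC5 (survivin) was at 101 ± 4.08 CPM at 6 h, against 186 ± 10.4 CPM at 0 h (log2 fold change -0.87). CDC20, which activates the anaphase-promoting complex, was at 283 ± 32.5 CPM at 6 h, against 439.5 ± 25.4 CPM at 0 h (log2 fold change -0.64). CCNB1, the mitotic cyclin, was not called, at 581, 612 and 566 CPM at 6 h, against 653, 602 and 619 CPM at 0 h (log2 fold change -0.092, adjusted p = 0.677), nor was TOP2A (log2 fold change -0.20, adjusted p = 0.185). CDKN1A, the inhibitor p21, was at 48.8, 49.3 and 42.8 CPM at 6 h, against 4.12, 6.17 and 2.86 CPM at 0 h (log2 fold change 3.54, SE 0.211, adjusted p = 5.03e-15). No DNA content or division was measured in these libraries.

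Chaperones of the endoplasmic reticulum rose together: 23 of 30 were higher and 0 lower (1 lower at an unadjusted p under 0.05 and 1 by DESeq2), with a median of 1.12. The list summed to 17734.7 to 17898.4 CPM at 6 h, against 8007.2 to 8687.6 CPM at 0 h. HSPA5 (BiP), the main chaperone of the compartment, was at 6759.8, 7023 and 6786 CPM at 6 h, against 2320.0, 2089 and 2332 CPM at 0 h (log2 fold change 1.61, SE 0.105, adjusted p = 5.62e-14). HSP90B1 (GRP94) was at 2692 ± 89.7 CPM at 6 h, against 1119.6 ± 37.3 CPM at 0 h (log2 fold change 1.27). The disulfide isomerase PDIA4 was at 829 ± 6.24 CPM at 6 h, against 387 ± 23.1 CPM at 0 h (log2 fold change 1.10). The co-chaperone DNAJC3 was at 365 ± 7.34 CPM at 6 h, against 142 ± 14.4 CPM at 0 h (log2 fold change 1.37). The co-chaperone DNAJB9 was at 105 ± 3.61 CPM at 6 h, against 41.2 ± 4.1 CPM at 0 h (log2 fold change 1.35). HERPUD1, which serves disposal of misfolded proteins, was at 445 ± 24.3 CPM at 6 h, against 181 ± 4.52 CPM at 0 h (log2 fold change 1.29). The calcium-binding chaperone CALR was not called (849.7 ± 43.9 CPM at 6 h, against 933 ± 138 CPM at 0 h, log2 fold change -0.14, adjusted p = 0.539). The promoters of HSPA5 and, chosen after its values were seen, of HYOU1 (279 ± 9.43 CPM at 6 h and 98.5 ± 13 CPM at 0 h), a chaperone of the same compartment, are shown because the ER stress element, the letters CCAAT and CCACG set apart, is known from such genes. Capitals mark every match to either run of letters on either strand (GRCh38.p14, 250 bases before the RefSeq start).
HSPA5 (chr9:125241344-125241593, minus strand): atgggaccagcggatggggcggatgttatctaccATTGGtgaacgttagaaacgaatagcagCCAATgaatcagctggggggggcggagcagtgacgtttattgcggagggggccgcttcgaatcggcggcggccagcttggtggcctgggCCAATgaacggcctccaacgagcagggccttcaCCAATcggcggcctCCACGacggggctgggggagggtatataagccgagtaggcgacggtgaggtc
HYOU1 (chr11:119057206-119057455, minus strand): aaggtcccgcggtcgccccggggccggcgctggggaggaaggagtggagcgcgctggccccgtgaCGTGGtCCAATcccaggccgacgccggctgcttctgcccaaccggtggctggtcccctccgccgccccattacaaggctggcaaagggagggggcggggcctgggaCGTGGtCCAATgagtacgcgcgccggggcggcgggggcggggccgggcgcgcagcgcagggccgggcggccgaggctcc
HSPA5 holds 4 CCAAT and 1 CCACG matches, and HYOU1 holds 2 of each. A CCAAT match was present in 21 and a CCACG match in 17 of the 25 list members with a promoter in the table (84% and 68%), where all promoters of that length hold them in 32% and 33.5% of cases and those of uncalled symbols in 34.4% and 41.3%. Promoters of risen symbols held CCAAT and CCACG in 33.8% and 42.3% of cases, and those of fallen symbols in 34.9% and 48.1%. A match is a run of letters and not a measured binding site.

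The amino acid stress response, which shares inputs with the chaperone response, split. Of 31 genes 6 rose and 9 fell. The proapoptotic factor DDIT3 (CHOP) was at 112, 117 and 111 CPM at 6 h, against 41.3, 40.9 and 40.6 CPM at 0 h (log2 fold change 1.47, SE 0.128, adjusted p = 5.99e-11). The neutral amino acid transporter SLC7A5 was at 638 ± 44.4 CPM at 6 h, against 165 ± 17.9 CPM at 0 h (log2 fold change 1.96). The cystine transporter SLC7A11 was at 21.9 ± 1.54 CPM at 6 h, against 6.91 ± 0.389 CPM at 0 h (log2 fold change 1.66). Among the members that fell, PSAT1, an enzyme of serine synthesis, was at 103 ± 1.96 CPM at 6 h, against 235 ± 2.26 CPM at 0 h (log2 fold change -1.19). PHGDH, which starts that route, was at 246 ± 9.78 CPM at 6 h, against 426 ± 28.7 CPM at 0 h (log2 fold change -0.79). PYCR1, an enzyme of proline synthesis, was at 41.8 ± 4.81 CPM at 6 h, against 94.1 ± 14 CPM at 0 h (log2 fold change -1.16). Chaperones of the cytosol also fell: 13 of 25 heat shock genes were lower and 1 was higher. The constitutive chaperone HSPA8 was at 2515, 2592 and 2498 CPM at 6 h, against 5911, 4945 and 5559 CPM at 0 h (log2 fold change -1.11, SE 0.115, adjusted p = 3.38e-09). Its partner DNAJB1 was at 248 ± 8.27 CPM at 6 h, against 524 ± 46.6 CPM at 0 h (log2 fold change -1.08). The chaperonin subunit CCT3 was at 633 ± 29.9 CPM at 6 h, against 1044 ± 102 CPM at 0 h (log2 fold change -0.72). The member that rose, HSPA13, encodes a chaperone of the endoplasmic reticulum (93.6 ± 2.99 CPM at 6 h, against 66.3 ± 3.31 CPM at 0 h).

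Metabolic lists moved in both directions. Of 33 genes of glucose uptake and glycolysis 7 rose and 14 fell. PKM, the pyruvate kinase, was at 4135, 4183 and 3967 CPM at 6 h, against 1426, 1237 and 1599 CPM at 0 h (log2 fold change 1.53, SE 0.103, adjusted p = 1.30e-13). SLC2A3, a high-affinity glucose transporter, was at 66.3, 66.2 and 71.8 CPM at 6 h, against 14.4, 12.9 and 13.6 CPM at 0 h (log2 fold change 2.31, SE 0.139, adjusted p = 6.63e-15). LDHA, which makes lactate from pyruvate, fell to 1474, 1546 and 1405 CPM at 6 h, against 2818, 2690.2 and 2825 CPM at 0 h (log2 fold change -0.91, SE 0.123, adjusted p = 5.78e-07), and TPI1 to 645 ± 46.6 CPM at 6 h, against 1089 ± 129 CPM at 0 h (log2 fold change -0.75). GAPDH was not called (log2 fold change -0.14, adjusted p = 0.268). Of 37 genes of cholesterol and fatty acid synthesis 14 fell and 7 rose (3 without the first library at 0 h), and the median was -0.15. The cyclase LSS was at 155 ± 6.66 CPM at 6 h, against 384 ± 34.4 CPM at 0 h (log2 fold change -1.31). The desaturase SCD was at 288 ± 19.6 CPM at 6 h, against 542 ± 45.5 CPM at 0 h (log2 fold change -0.91). FADS1, another desaturase, was at 154 ± 8.46 CPM at 6 h, against 279.8 ± 28.6 CPM at 0 h (log2 fold change -0.87). STARD4, a sterol carrier, was at 209 ± 19.6 CPM at 6 h, against 132 ± 13.5 CPM at 0 h (log2 fold change 0.66). Ribosomal protein genes moved little, with 0 of 53 called in either direction (0 higher and 1 lower at an unadjusted p under 0.05, 0 by DESeq2; 2 higher and 5 lower in a fit of these 6 libraries alone). The list summed to 55322.3 to 56530.7 CPM at 6 h, against 54980.8 to 59496.6 CPM at 0 h. Of 43 genes of ribosome assembly 11 fell, a count that was 7 without the third library at 0 h or the first or second at 6 h, 6 without the third at 6 h, and 19 in a fit of these 6 libraries alone. UBTF, the transcription factor of ribosomal DNA, was at 66.2 ± 5.97 CPM at 6 h, against 145 ± 1.77 CPM at 0 h (log2 fold change -1.14). Of 36 nuclear-encoded subunits of oxidative phosphorylation 9 fell (5 without the first and 4 without the third library at 6 h, 19 in a fit of these 6 libraries alone).

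**Figure D4:**
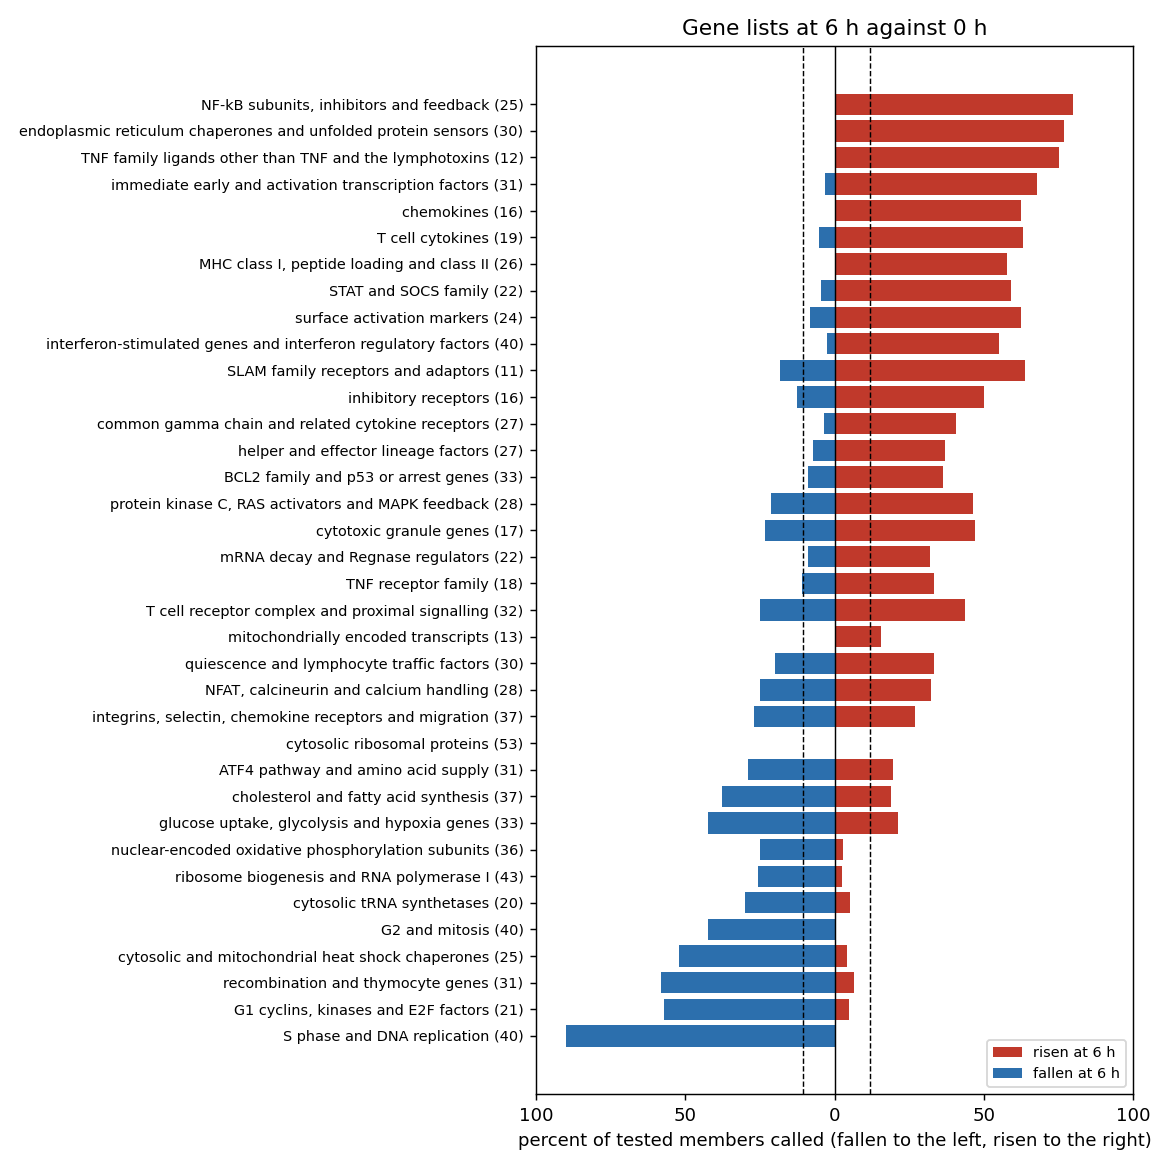
Percent of the tested members of each gene list, marker lists of cell types aside, that had risen (red, to the right) or fallen (blue, to the left) at 6 h against 0 h, with the number of tested members beside the name; dashed lines mark the shares over all symbols tested, 11.8% higher and 10.5% lower. NF-kB (80% higher) and endoplasmic reticulum chaperones (76.7% higher) lie at one end and S phase genes (90% lower) at the other.

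Genes that control RNA stability, quiescence and survival also changed. ZFP36L1, a protein that directs decay of AU-rich messages, was at 883, 909.8 and 889.6 CPM at 6 h, against 22, 21.6 and 26.7 CPM at 0 h (log2 fold change 5.24, SE 0.124, adjusted p = 1.08e-25). Its relative ZFP36L2 was at 3.54, 7.4 and 6.07 CPM at 6 h, against 30.1, 25.4 and 20.5 CPM at 0 h (log2 fold change -2.16, SE 0.297, adjusted p = 8.60e-07). The pair thus moved apart, and neither gene's groups overlapped. ZFP36, the founding member, was at 33.9 ± 1.83 CPM at 6 h, against 14.6 ± 0.457 CPM at 0 h (log2 fold change 1.22). The endonuclease ZC3H12A (Regnase-1), which cuts cytokine messages, was at 58.4 ± 3.4 CPM at 6 h, against 12.5 ± 2.25 CPM at 0 h (log2 fold change 2.26). Of 22 genes of this kind 7 rose (31.8%) and 2 fell (9.09%), with a median of 0.065. Over all symbols tested the shares were 11.8% and 10.5%, so the falls were near that share. Of 30 genes of quiescence and homing 10 rose and 6 fell. The antiproliferative BTG1 was at 30.6 ± 4.89 CPM at 6 h, against 6.41 ± 1.42 CPM at 0 h (log2 fold change 2.20). Its relative BTG2 was at 20.5 ± 1.54 CPM at 6 h, against 6.62 ± 1.5 CPM at 0 h (log2 fold change 1.61). The chemokine receptor CXCR4 fell to 259 ± 4.09 CPM at 6 h, against 463 ± 27.7 CPM at 0 h (log2 fold change -0.84). TXNIP, a regulator of glucose uptake, was at 2.07, 0.577 and 1.67 CPM at 6 h, against 3.46, 1.61 and 3.7 CPM at 0 h, and its call (adjusted p = 0.0181) was lost without the first or the third library at 0 h or the second at 6 h (adjusted p 0.000648 to 0.152 over the alternatives tried). Of 33 genes of apoptosis and arrest 12 rose (36.4%) and 3 fell (9.09%, near the share of all symbols), and the median was 0.46. The survival factor MCL1 was at 159 ± 8.6 CPM at 6 h, against 55.7 ± 6.32 CPM at 0 h (log2 fold change 1.52). PPP1R15A (GADD34), a phosphatase subunit of stressed cells, was at 253 ± 6.23 CPM at 6 h, against 62.3 ± 4.98 CPM at 0 h (log2 fold change 2.02). BID, which links death receptors to mitochondria, was at 85.6 ± 8.82 CPM at 6 h, against 279 ± 39 CPM at 0 h (log2 fold change -1.70).

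The next time point showed which of these levels lasted. Between 12 h and 6 h in WT cells 2045 symbols were called (9.49% of 21554), 829 of them higher at 12 h and 1216 lower; with DESeq2 size factors for scaling the split was 1024 higher and 826 lower. Without the first, second or the third library at 6 h 1330, 1284 and 1203 symbols were called, and without the second at 12 h 1208. The comparison shares the 6 h libraries with the one above, so values are set side by side and no agreement between them is counted. Chaperones of the endoplasmic reticulum were lower at 12 h than at 6 h in 20 of 30 members (17 with the other scaling), where 5.64% of all symbols were lower. HSPA5 was at 2247 ± 137, 6856 ± 145, 997 ± 19.8, 654 ± 55.5 and 633 ± 88.9 CPM at 0, 6, 12, 24 and 36 h (log2 difference -2.78, SE 0.11, adjusted p = 5.99e-19 for 12 h over 6 h), and HERPUD1 at 181 ± 4.52, 445 ± 24.3, 45 ± 4.22, 63.8 ± 1.61 and 56.6 ± 5.03 CPM (log2 difference -3.31, SE 0.109, adjusted p = 4.05e-21). S phase genes were lower at 12 h in 26 of 40 (21 with the other scaling). NF-kB genes were lower in 8 of 25, among them NFKBIA, at 24.7 ± 2.85, 184 ± 22.5, 57.7 ± 6.56, 35.4 ± 7.56 and 41.6 ± 2.07 CPM over the 5 times (log2 difference -1.68, SE 0.146, adjusted p = 4.10e-10), and BIRC3 (log2 difference -1.37, SE 0.134, adjusted p = 5.30e-09).

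Interferon genes were higher at 12 h than at 6 h in 25 of 40 members (26 with the other scaling), where 3.85% of all symbols were higher. GBP2 was at 2.06 ± 0.506, 75.8 ± 5.36, 203 ± 6.77, 208 ± 71.9 and 452 ± 38.9 CPM at 0, 6, 12, 24 and 36 h (log2 difference 1.42, SE 0.211, adjusted p = 1.64e-05), and its mean was highest at 36 h. MHC genes were higher in 13 of 26, with TAP1 at 664 ± 112 CPM at 12 h and 347 ± 32.9 CPM at 6 h (log2 difference 0.94, SE 0.112, adjusted p = 3.48e-07). Thymocyte genes were higher in 9 of 31. NOTCH1 was at 39.8 ± 8.85 CPM at 12 h and 19.9 ± 1.02 CPM at 6 h (log2 difference 0.99, SE 0.194, adjusted p = 0.000747), whereas DNTT was at 179 ± 18, 76.7 ± 1.54, 10.9 ± 1.75, 6.62 ± 4.09 and 0.661 ± 0.515 CPM over the 5 times (log2 difference -2.81, SE 0.259, adjusted p = 1.53e-09). RAG1 was not called between 12 h and 6 h and had means of 17.1 CPM at 0 h and 0.591 CPM at 6 h, with 0.959 ± 0.34 CPM at 12 h. GZMB was at 85.2 ± 6.45 CPM at 12 h and 230.1 ± 17.5 CPM at 6 h (log2 difference -1.43, SE 0.299, adjusted p = 0.00155), and PDCD1 at 64.7 ± 10.2 CPM and 23.8 ± 1.9 CPM (log2 difference 1.44, SE 0.367, adjusted p = 0.0102). IL2 was not called between these times, with 9.39 ± 3.99 CPM at 12 h and 14.3 ± 0.772 CPM at 6 h (adjusted p = 0.462), and reached 44.3 ± 26.2 CPM at 24 h and 59.1 ± 6.66 CPM at 36 h.

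**Figure D5:**
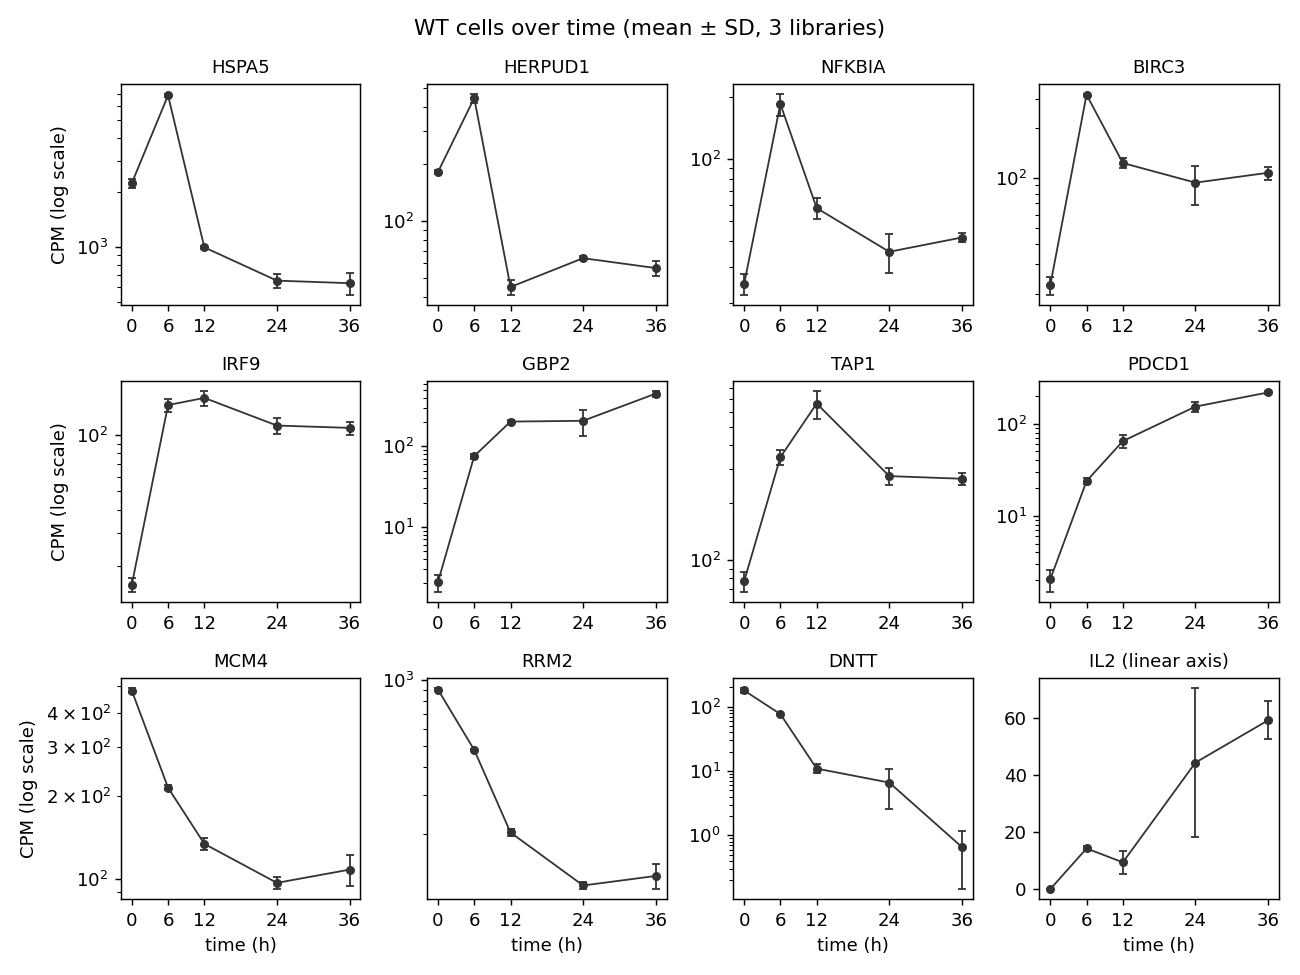
Mean level (CPM, log scale except for IL2, points joined by lines) in WT cells at 0, 6, 12, 24 and 36 h for 12 genes, with error bars for the SD of 3 libraries. HSPA5 and HERPUD1 are highest at 6 h (HSPA5 mean 6856 CPM), TAP1 is highest at 12 h (664 CPM), MCM4, RRM2 and DNTT are lower at 12 h than at 6 h, and IL2 and PDCD1 are highest at 36 h.

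The KO cells went through the same treatment and give a further view of the 6 h change. The change of WT cells at 6 h differed from that of KO cells for 649 symbols (3.01% of 21554), 296 with the WT change above (1.37%) and 353 with it below (1.64%). One KO library at 6 h, its second, stood apart from its replicates, with counts that differed from them 12.1 and 12.9 times more than counting noise gives. Without that library 638 symbols were called. Without the first WT library at 0 h, the first or the third WT library at 6 h, or the first KO library at 0 h, the count was 402, 427, 410 and 380. The SLAMF6 transcript itself was at 42.3 ± 4.91 CPM at 6 h and 19.3 ± 1.47 CPM at 0 h in KO cells, and counts per gene cannot show the loss of an isoform or a small edit. DUSP6 rose in WT cells as given above and was at 59.5 ± 17.6 CPM at 6 h and 1.79 ± 0.191 CPM at 0 h in KO cells, a difference of the log2 changes (WT minus KO) of -3.30 (SE 0.479, adjusted p = 7.77e-05). For SPRY4 the KO levels were 66.8 ± 12.3 CPM at 6 h and 0.673 ± 0.674 CPM at 0 h, a difference of -3.24 (SE 0.376, adjusted p = 2.85e-06), which was -2.58 without the first KO library at 0 h. EGR1 was at 196 ± 58.5 CPM at 6 h and 1.27 ± 0.187 CPM at 0 h in KO cells, a difference of -2.07 (SE 0.287, adjusted p = 3.90e-05), and CDKN1A at 157 ± 31.5 CPM at 6 h and 3.41 ± 0.347 CPM at 0 h, a difference of -1.99 (SE 0.298, adjusted p = 0.000103). For each of these 4 genes the mean KO level at 0 h was below the mean WT level at 0 h. The same held for CD69 (662 ± 229 CPM at 6 h and 8.57 ± 0.133 CPM at 0 h in KO cells, a difference of -1.48 (SE 0.268, adjusted p = 0.00104)). STAT4 was at 56.2 ± 17.3 CPM at 6 h and 45.2 ± 1.05 CPM at 0 h in KO cells, with a higher mean at 0 h than in WT cells and a difference of 1.82 (SE 0.291, adjusted p = 0.000247). IL2 reached 79.4 ± 45.5 CPM at 6 h and 0.178 ± 0.00908 CPM at 0 h in KO cells, and no difference of the changes is given because the WT libraries held no count at 0 h. The difference was not called for HSPA5 (-0.40 (SE 0.146, adjusted p = 0.141)), MCM2 (-0.10 (SE 0.167, adjusted p = 0.845)) and RAG2 (0.057 (SE 0.561, adjusted p = 0.983)), which does not show that the genotypes changed alike.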

How the data were processed

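RNA-seq libraries of WT and SLAMF6-edited Jurkat cells were read from the deposited tables of 1 library each, which hold expected counts per gene symbol as the authors deposited them, almost all whole (0.177% of values, in 195 symbols, were fractional, and were rounded here). Per the submitters' processing notes, cutadapt, STAR and DESeq2 were used, with GRCh37 and hg19 named as builds and no version stated. Which program counted the reads, and on which annotation, is not given in the sources used here. Groups and replicate numbers came from the library titles. Counts of all 30 libraries in 10 groups were fitted in 1 edgeR 4.0.16 quasi-likelihood model (R 4.3.3) with TMM scaling, after filterByExpr with a minimum count of 10, which left 21554 of 54300 symbols. Benjamini-Hochberg adjustment covered all of them, with calls at 0.05. Because the filter looked at all groups, a symbol with few counts at 0 h could be tested through another group. Contrasts were WT 6 h against 0 h, WT 12 h against 6 h, and the WT against the KO change at 6 h. Log2 fold changes carry the standard error implied by the F statistic. A group without counts was given a floor of 3 counts, 0.0496 CPM over the 0 h group, and intervals of this kind cover counting error only. The fit was tested on simulated data. DESeq2 1.42.0, other scaling, no filter, fits of the compared groups alone, a replicate block and leaving out each library were tried as alternatives. The members and gene lists were chosen with earlier results of these data known, so their counts are descriptions. Genes were named by the size of their change, by the smallest p within each list, and as the most abundant uncalled member. Called members against a list's main direction were added. Genes named by size had to be called, without overlap between the groups, at a group mean of at least 10 or 100 CPM. Clone names were left out. A fixed set, IL2, CD69 and RCAN1 among them, was always included. Genes said to be chosen after their values were seen and the cell type markers stand apart from this rule. A few genes that fall under this rule are not reported here. Promoter and microRNA sequences came from RefSeq, build GRCh38.p14.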

Additional observations from a re-analysis of the deposited data

Results flagged for a closer look

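The difference between the WT change and the KO change at 6 h was tested as an interaction in the fit of all 30 libraries. Of 190 named genes followed through the alternatives, 37 passed an adjusted p of 0.05 (edgeR quasi-likelihood test). Over all 21554 symbols 649 passed (3.01%). The named genes were picked largely for their WT change at 6 h, so the shares are not compared. Values are log2 differences, WT minus KO, with 3 libraries in each of the 4 groups. Among genes that rose in WT cells, the WT change was below the KO change for ATP6V0A4 (-1.51), CCND1 (-2.92), CD69 (-1.48), CDKN1A (-1.99), CRTAM (-5.26), DUSP6 (-3.30), EGR1 (-2.07), HERPUD1 (-0.56), HLA-E (-0.82), IER3 (-1.96), IL23A (-1.02), IL2RA (-2.09), IRF1 (-0.68), MCL1 (-0.47), PPP1R15A (-0.66), PTGS1 (-4.42), SLAMF7 (-2.02), SPRED2 (-1.43), SPRY4 (-3.24), TNFSF10 (-1.34), TNFSF8 (-2.23) and TRAF1 (-1.84). It was above the KO change for BTG2 (0.94), CBLB (0.99), CD5 (1.09), DNAJC3 (0.64), ENPP1 (1.59), PDIA4 (0.50), SCG2 (0.95) and STAT4 (1.82). Among genes that fell in WT cells, the WT change was below the KO change for MYC (-1.81), PMEPA1 (-0.90) and TNFRSF8 (-1.43). It was above the KO change for CXCR4 (1.44) and LAIR1 (1.01). Of genes not called in WT cells at 6 h, CD40LG (-2.90) and ID3 (0.97) differed between the genotypes. The calls of CD5, CD69, CDKN1A, CXCR4, DNAJC3, DUSP6, EGR1, ENPP1, HLA-E, IER3, PTGS1, SCG2, SPRED2, SPRY4, STAT4, TNFRSF8, TNFSF8 and TRAF1 were kept in every alternative tried for this comparison, and each of the other genes lost its call in at least 1. Without the second KO library at 6 h, which stood apart, the calls of BTG2, CBLB, IRF1, MCL1, PMEPA1 and TNFSF10 were lost. The size of 5 of these differences moved by over 1.5 times with 1 library. Without the first KO library at 0 h the difference was -5.71 for CCND1, -7.96 for CRTAM, -6.33 for PTGS1 and -2.58 for SPRY4. Without the third KO library at 0 h it was -2.18 for CCND1, -4.47 for CRTAM, -3.71 for PTGS1 and -2.85 for IL2RA, and without the first WT library at 0 h -1.38 for IL2RA.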

How the results depend on the processing

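At 6 h against 0 h, 4818 symbols were called and the alternatives gave 4184 (no filter on low counts) to 5981 (the 6 libraries alone), with 4913 under DESeq2 size factors and 5122 with DESeq2. Leaving out each library in turn gave 3690 to 4075. A call that also needs a 2-fold change left 1707. Of the distinct genes in the gene lists, 525 were called, and 465 to 624 under the alternatives. At 12 h against 6 h, 2045 symbols were called, 4028 in a fit of those 6 libraries alone and 1203 to 1440 without each library in turn. Scaling moved the split from 829 higher and 1216 lower to 1024 and 826. For the difference between the WT and KO changes, 649 were called, 1105 with DESeq2 and 380 to 638 without each library in turn.

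With the replicate number as a block in the 12 libraries of 0 and 6 h, 1546 symbols were called for that difference. Deviations of WT and KO libraries with the same number correlated at 0.0102 to 0.0709, each below 0.1, so the number was not taken as a pairing. Every WT library correlated best with the KO library of its own number, which is a hint from the data and not from the design. No block could be fitted to WT 6 h against 0 h or to 12 h against 6 h, which share no replicate numbers. The direction at 6 h against 0 h of the named genes that were called held in every alternative tried. The depth of the second library at 0 h (7593309 counts) limits what can be said of genes near the floor, and 3 libraries a group limit all of it.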

Other observations

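Host or precursor transcripts of 2 microRNAs rose at 6 h, genes that were chosen after their values were seen. MIR146A, the symbol of the precursor of a microRNA that restrains NF-kB signalling, was at 24.1, 17.5 and 18.3 CPM at 6 h, against 0.505, 0.536 and 0.257 CPM at 0 h (log2 fold change 5.62, SE 0.343, adjusted p = 8.89e-15). MIR155HG, the host transcript of a microRNA of activated lymphocytes, was at 0.736, 1.34 and 1.06 CPM at 6 h, against 0.194, 0 and 0.293 CPM at 0 h (log2 fold change 2.31, SE 0.613, adjusted p = 0.00492). The groups did not overlap in either gene. Such counts do not measure mature microRNAs. The mature product of MIR146A is printed with its seed, bases 2 to 8, in capitals (RefSeq, GRCh38.p14, chr5:160485372-160485393, plus strand).
hsa-miR-146a-5p: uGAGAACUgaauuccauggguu

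Protein-coding genes made up 81.4% of the 2553 symbols that had risen, 87.6% of the 2265 that had fallen and 60.8% of the 16736 not called. Gene types and spans came from the GENCODE annotation, which matched 88.2% of the risen and 91.5% of the fallen symbols. Median gene span was 42.5 kb in the 2077 protein-coding genes that had risen and 28.5 kb in the 1984 that had fallen. The comparison with uncalled symbols is void because 74.3% of them matched.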
